A study of Mus musculus with 3 samples.

Results

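The cells described here are the blood cells of naive mice that were placed by antibody tags in 3 surface gates. The gates are called Ly6High, Ly6CLow and Ly6CLy6G as in the deposited cell descriptions. A cell was used if its barcode occurred in 1 of the 3 deposited tables alone and if the naive blood hashtags made up 0.5 or more of its hashtag counts. This rule gave 1431 gated cells, 859 of the Het and 572 of the Hom sample, among 3694 naive blood cells that passed it and 16328 cells deposited in all. Of 2082 gated cells deposited, 1448 had a barcode in 1 table, and 17 of these fell under the hashtag minimum. The choice was clear for nearly all cells, since 1417 of the 1431 had a hashtag share of at least 0.8. Only 3 cells lay just inside the minimum, at 0.5 to 0.6, and 2 just outside it, at 0.4 to 0.5.

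The study pooled 8 hashed samples of blood and brain from female mice 2 to 3 months old on a C57Bl/6 background, stained each with 35 tagged antibodies and made 1 set of RNA, antibody and hashtag libraries. The labels give Cx3cr1+/-, Cx3cr1-/-, CCR2+/- and CCR2-/- as the genotypes of the series, but do not say which gene Het and Hom refer to in blood. Naive Het and naive Hom blood were 1 hashed sample each, drawn from the heart into heparin and freed of red cells by lysis, and the number of mice in each was not stated. Both came from mice without brain metastases. With 1 sample of each genotype no gene was tested: all intervals below are 95% intervals that cover counting error only, and Het and Hom are given side by side. Intervals of levels and ratios were computed on counts corrected for depth by a model, not on raw molecules. Among Het Ly6CLow cells the fewest raw RNA molecules per cell were 559, and the lowest corrected total was 3383. Such intervals can be too narrow for cells with few raw molecules.

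Ly6C is a small surface protein held in the membrane by a lipid anchor. In mice its amount separates classical monocytes, which are rich in it and enter inflamed tissue through the chemokine receptor Ccr2, from patrolling monocytes, which carry little and crawl along the vessel wall. Ly6G is a related protein found on neutrophils, which carry Ly6C as well. The antibody to Ly6C recognises the products of Ly6c1 and Ly6c2, near-identical neighbours on chromosome 15. Reads that cannot be placed between such copies make the counts of the single genes uncertain.

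The gates rest on counts of short tags coupled to the antibodies, so the tags that split these cells are shown with the hashtags of the samples, 5′ to 3′ as listed by the authors.
Ly6C: aagtcgtgaggcatg
Ly6G: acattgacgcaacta
CD11b: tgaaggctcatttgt
Hashtag of the Het sample: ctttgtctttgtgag
Hashtag of the Hom sample: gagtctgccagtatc
Each tag has 15 bases. The Ly6G tag differs from the Ly6C tag at 11 positions and the CD11b tag differs from it at 14, while the closest tags of the whole pool differ at 5. The RNA genes lie apart from these tags in origin: Ly6c2 stands at chr15:75108161-75112066 and Ly6g at chr15:75155261-75159128 in GRCm38.p6, with Ly6c1 on the near side at chr15:75044018-75048920. All 3 are protein-coding genes in the RefSeq annotation.

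The authors' columns place the gates at the end of a series of splits. Cells positive for CD117, B220 or CD3 and NK cells were set aside first, then cells without CD11b and Ly6C, and what was left was split by Ly6C and Ly6G, apart from 7 Het and 2 Hom cells that stayed in none of the 3 gates. The positions of these splits and the counts of single antibodies per cell were not used here. The Ly6High gate held 77 Het and 110 Hom cells, which were 4.49% (3.56% to 5.58%) and 5.56% (4.59% to 6.66%) of all clear cells of the sample. The Ly6CLow gate held 40 and 91 cells, or 2.33% (1.67% to 3.16%) and 4.601% (3.72% to 5.62%). The Ly6CLy6G gate was the largest, with 742 and 371 cells, or 43.2% (40.9% to 45.6%) of the Het and 18.8% (17.1% to 20.5%) of the Hom sample. The gates also differed in depth. The median number of RNA molecules (UMIs) per cell was 11183 in Het and 12128 in Hom for Ly6High, 5735 and 6825 for Ly6CLow, and 3031.5 and 2828 for Ly6CLy6G. Total antibody counts ran in another order, with medians of 4932 and 4813.5 in Ly6High, 3206 and 3227 in Ly6CLow, and 6216 and 6591 in Ly6CLy6G. The depth-corrected totals that carry the results were closer, with medians between 4321 and 5266 per cell. Of 5363 naive blood barcodes 1601 also stood in another table, and these are left out here.

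The gates mapped unevenly on the authors' 8 RNA clusters. Markers raised over the other clusters made cluster 0 neutrophil-like (12 of 12 neutrophil markers) and cluster 1 B-cell-like (10 of 10). Cluster 2 was a mix of T-cell-like and NK-like cells (11 of 11 and 9 of 9), and cluster 3 was monocyte-like. Cluster 3 took in both kinds of monocyte, with 9 of 10 Ly6c-high and 12 of 12 Ly6c-low markers raised. It was not monocyte-like alone, since 3 of 8 dendritic cell markers, Cd209a among them, were raised there too. Cluster 6 was platelet-like (8 of 8). Clusters 4, 5 and 7 were left unnamed, and cluster 4 had a median of only 1109 UMIs. The genes most raised in cluster 5 (14 cells) included the macrophage genes Tmem119, Fcrls, C1qa and Cx3cr1. Those of cluster 7 (15 cells) included Cd5l and Alox15.

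Ly6High cells came almost wholly from cluster 3, with 72 of 77 Het cells (93.5%, 85.5% to 97.9%) and 101 of 110 Hom cells (91.8%, 85.04% to 96.2%). The 5 other Het cells and 7 of the other Hom cells lay in the low-RNA cluster 4. Ly6CLy6G cells came from cluster 0 in 729 of 742 cells in Het (98.2%, 97.0% to 99.1%) and 361 of 371 in Hom (97.3%, 95.1% to 98.7%). The Ly6CLow gate was mixed: only 25 of 40 Het cells (62.5%, 45.8% to 77.3%) and 39 of 91 Hom cells (42.9%, 32.5% to 53.7%) lay in cluster 3. Cluster 4 held 7 Het and 20 Hom cells of this gate. The B-cell-like cluster 1 held 4 and 12. Cluster 2 held 15 Hom cells and 0 of 40 Het cells, for which the exact 95% upper limit is 8.81%.

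**Figure D1:**
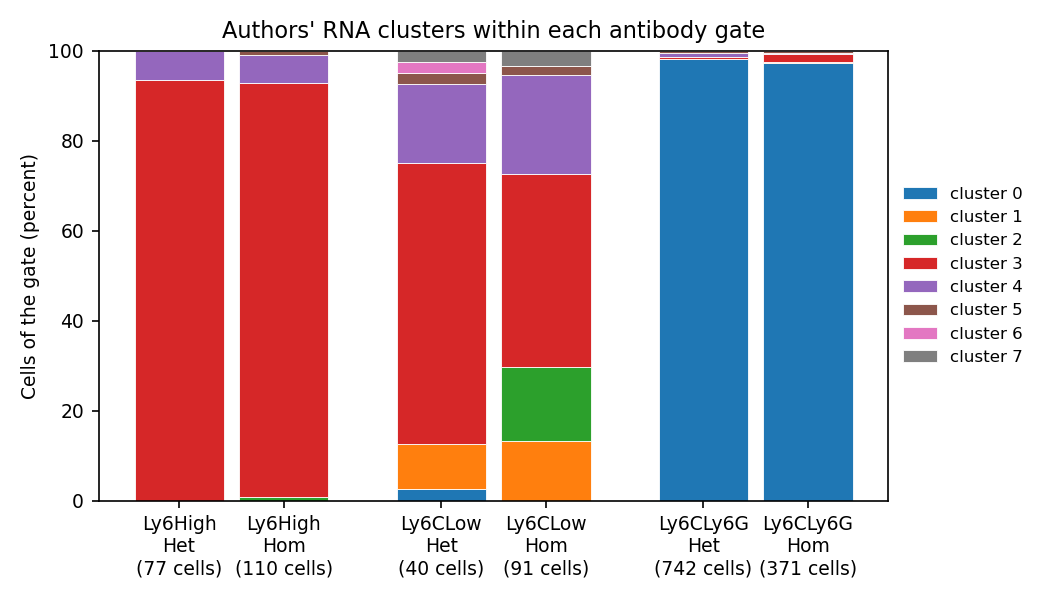
Share of each gate's cells (percent, stacked to 100) in the authors' 8 RNA clusters, for the Het and Hom samples. Cluster 3 fills 93.5% and 91.8% of the Ly6High bars and 62.5% and 42.9% of the Ly6CLow bars, and cluster 0 fills 98.2% and 97.3% of the Ly6CLy6G bars.

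Read from the clusters, the match was closer for neutrophil-like than for monocyte-like cells. Of the Het cells in cluster 0, 91.7% were in the Ly6CLy6G gate, and of the Hom cells 95.8%. Of the cells in cluster 3, 41.1% of 175 Het and 55.5% of 182 Hom cells were in the Ly6High gate, and 14.3% and 21.4% were in Ly6CLow. In Het blood 51 cluster 3 cells (29.1%) had left as CD3 positive and 18 as B220 positive. In Hom blood the numbers were 9 (4.95%) and 20. Both kinds of cell therefore sit outside the gates compared here.

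The genes of the gated proteins followed the gates in different ways. Ly6c2 stood at 20.3 corrected counts per 10000 in Het and 20.02 in Hom Ly6High cells, at 0.968 and 1.19 in Ly6CLow, and at 1.55 and 1.12 in Ly6CLy6G. The log2 ratio of Ly6High over Ly6CLow was 4.31 (3.72 to 5.15) in Het and 4.04 (3.67 to 4.50) in Hom. Ly6CLy6G cells stood near Ly6CLow cells, with log2 ratios of Ly6c2 of 0.60 (0.00 to 1.44) in Het and -0.11 (-0.55 to 0.38) in Hom. The second of these turned to 0.15 when the 2 most abundant neutrophil genes were left out of the totals, to 0.12 without the highest Ly6CLow cell and to 0.30 with all deposited cells, so no direction is given for Hom.

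A Ly6c2 count was found in 87.0% of 77 Het and 91.8% of 110 Hom Ly6High cells. It was found in 17.5% of 40 and 18.7% of 91 Ly6CLow cells and in 24.3% of 742 and 15.9% of 371 Ly6CLy6G cells. B220 positive cells of cluster 1, which should lack it, showed 6.62% of 408 and 6.33% of 758 at median depths of 4629 and 4858.5 UMIs. With every cell thinned to 1000 corrected counts, which left out 0 gated cells, the shares of Ly6c2-positive cells were 63.6% and 66.4% in Ly6High, 8.79% in Hom Ly6CLow (8 of 91, beside 2 of 40 in Het), 9.03% and 7.82% in Ly6CLy6G, and 1.72% and 1.06% in the B220 positive cells. Ly6High cells stood far above all others, while the Ly6CLow shares rest on few cells. Corrected counts come from a model of depth, so thinning them does not undo differences in raw depth.

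Ly6c1, the other gene behind the Ly6C antibody, had next to no RNA here. The sums were 1 and 3 counts in Ly6High, 1 and 3 in Ly6CLow, and 16 and 4 in Ly6CLy6G for Het and Hom. Between 0.809% and 2.73% of the cells of a gate had a count, against 2.21% and 1.85% of B220 positive cells, so these shares are read as background.

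Among the 3 gates, Ly6g counts were found in Ly6CLy6G alone, but few of its cells showed one. The gene had 375 counts in Het and 97 in Hom Ly6CLy6G cells, or 1.15 and 0.607 per 10000, and 0 counts in both other gates in both samples. Against a floor of 3 counts per gate and sample it was at least 15.1-fold higher than in Ly6High for Het and 11.1-fold for Hom, and at least 7.16-fold and 8.81-fold higher than in Ly6CLow. A Ly6g count was found in 20.2% (17.4% to 23.3%) of Het and 11.9% (8.75% to 15.6%) of Hom Ly6CLy6G cells. In B220 positive cells of cluster 1 the shares were 0.245% and 0.264%. Ly6g was not limited to the gate: the 58 Het cells of cluster 0 set aside before the split by Ly6C and Ly6G stood at 1.74 per 10000. Ly6CLy6G cells of that cluster stood at 1.17 in Het and 0.621 in Hom, and 16 Hom cells of it outside the gates had 0 counts. For 0 of 77 and 0 of 110 Ly6High cells, 3 cells would be 3.90% and 2.73%, and the exact 95% upper limits are 4.68% and 3.30%. These limit the cells with a Ly6g count, not the cells that express the gene.

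Of 10 Ly6 family genes in the table, 5 had enough counts over all gated cells. Of these, Ly6c2 alone was at least 2-fold higher in Ly6High than in Ly6CLow in both samples, and 2 (Ly6a and Ly6d) were lower. Of all genes tested, 4.23% were higher and 3.78% lower. Ly6e, which is expressed in many blood cells, stood at 17.7 and 17.6 per 10000 in Ly6High, 17.2 and 13.5 in Ly6CLow, and 7.89 and 8.21 in Ly6CLy6G. Ly6a, which encodes the stem cell antigen Sca-1, stood at 0.102 and 0.273 in Ly6High and at 1.18 and 2.23 in Ly6CLow. Within cluster 3 it had only 4 against 2 counts in Het and 15 against 13 in Hom. In the B-cell-like cluster 1 cells of the Ly6CLow gate Ly6a stood at 10.7 and 12.1 per 10000. Ly6i, a further member of the family, was at least 2-fold lower in Ly6High in both samples within cluster 3, at 0.675 and 0.821 against 2.79 and 3.39 per 10000. The log2 ratio of Ly6i there was -2.03 (-2.86 to -1.26) in Het and -2.03 (-2.64 to -1.47) in Hom. Ly6d, a B-cell gene in blood, stood at 2.69 and 3.28 per 10000 in Ly6CLow over all cells and at 0.493 and 0.257 in its cluster 3 cells.

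**Figure D2:**
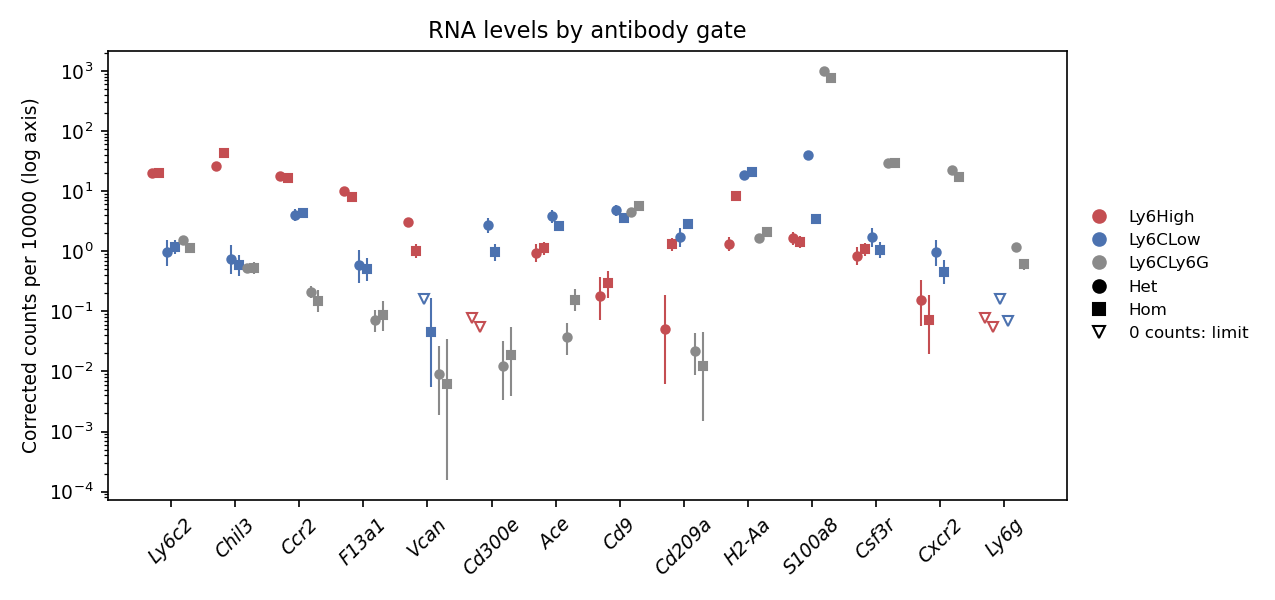
Corrected counts per 10000 on a log axis for 14 genes in the 3 gates, with circles for Het, squares for Hom and bars for exact Poisson 95% intervals of the counts. Open triangles mark a gate with 0 counts, drawn at the limit that 3 counts would give. Ly6c2 is near 20 per 10000 in Ly6High and near 1 in the other gates, and Ly6g has counts only in Ly6CLy6G.

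The question behind the first comparison is which genes follow the amount of Ly6C on the surface of cells without Ly6G. A gene was counted as higher or lower where the ratio was at least 2-fold with at least 20 corrected counts in the higher gate, in Het and in Hom. Of 2887 genes with enough counts in both samples, 122 (4.23%) were higher and 109 (3.78%) lower in Ly6High than in Ly6CLow. The median log2 ratio over these genes was 0.11 in Het and 0.04 in Hom. Across genes the Het and Hom ratios had a Pearson r of 0.68, a description over genes that share a library and are not independent. Opposite 2-fold differences in Het and Hom were found for 7 genes.

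The higher genes included markers of classical monocytes. Chil3, which encodes a chitinase-like protein secreted by myeloid cells, stood at 25.8 and 43.6 per 10000 in Het and Hom Ly6High cells and at 0.753 and 0.597 in Ly6CLow. Its log2 ratio was 5.0 (4.34 to 5.97) and 6.14 (5.64 to 6.81). F13a1, the coagulation factor XIII A chain, stood at 9.90 and 7.99 against 0.591 and 0.505. Vcan, the matrix proteoglycan versican, had 118 counts in Het Ly6High cells and 0 in Ly6CLow, at least 18.7-fold higher, and 56 against 2 counts in Hom, a log2 ratio of 3.91 (2.55 to 7.55). All 3 were far apart between the gates in both samples.

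Ccr2, the receptor by which classical monocytes leave the bone marrow, stood at 18.0 and 16.7 per 10000 in Ly6High and at 3.98 and 4.34 in Ly6CLow. The log2 ratio was 2.16 (1.83 to 2.55) in Het and 1.94 (1.72 to 2.18) in Hom. Mgst1, a microsomal glutathione transferase, had log2 ratios of 2.74 and 3.88. Ifi211, an interferon-inducible gene, had 2.59 and 2.64, and Cd177, a surface glycoprotein known from neutrophils, had 2.93 (1.70 to 5.63) and 4.85 (3.31 to 11.16) on 63 against 3 and 72 against 1 counts.

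The genes lower in Ly6High included monocyte and B-cell genes. Cd300e, a receptor of the patrolling monocyte, had 51 and 42 counts in Ly6CLow and 0 in Ly6High, at least 35.8-fold and 17.7-fold apart. Cd9, a tetraspanin, stood at 4.78 and 3.58 per 10000 in Ly6CLow against 0.179 and 0.291. Cd79a and Ms4a1, a part of the B-cell receptor and CD20, had log2 ratios of -4.60 and -3.39, and of -4.16 (-6.88 to -2.86) and -3.46. Within cluster 3 Cd79a came to 0 against 3 counts in Het and 17 against 4 in Hom. Ets1, a transcription factor of lymphocytes, stood at 1.24 and 1.38 per 10000 in Ly6CLow, and Ifitm1, an interferon-induced membrane protein, at 1.34 and 2.85.

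One cell can carry such a difference. Retnla, which encodes a resistin-like protein of macrophages, ranked first among the lower genes with 318 and 103 counts in Ly6CLow. A single cell held 82.7% of these counts in Het and 98.1% in Hom, and without that cell the Hom log2 ratio of Retnla went from -5.04 to 0.080. Within cluster 3 Retnla had 0 counts in Het and 102 in Hom Ly6CLow cells. With the highest cell of the higher gate left out for every gene, 97 higher and 52 lower genes remained, all among the 122 and 109. With the highest cell left out of both gates the numbers were 162 and 64, of which 115 and 63 were among them. Both forms were chosen after such cells had been seen, and the first with the outcome of the second known.

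Cells of other types lay in the Ly6CLow gate, and their markers moved with these genes. The 10 B-cell markers summed to 13.1 and 18.1 per 10000 in Ly6CLow against 1.05 and 1.58 in Ly6High. The 9 NK markers summed to 38.5 in Hom Ly6CLow cells, 0.54 in Het, and 0.28 and 0.38 in Ly6High. Gzma, a granule protease of NK and T cells, stood at 128 per 10000 in the 15 Hom Ly6CLow cells of cluster 2 and at 0.0513 in the 39 of cluster 3. The neutrophil markers summed to 97.1 per 10000 in Het Ly6CLow cells and to 13.7 in Hom, and 1 Het cell held 88.7% of the S100a8 counts of that gate. Igha, the constant chain of immunoglobulin A, reached 232 per 10000 in the 12 Hom Ly6CLow cells of cluster 1, and 1 cell held 99.9% of the counts of that gate. Cluster 3 gave 65.5% of the corrected counts of the Ly6CLow gate in Het and 44.7% in Hom.

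The gates were therefore also compared within cluster 3, where both had more than 20 cells in each sample (72 and 25 in Het, 101 and 39 in Hom). Of 2673 genes with enough counts, 68 (2.54%) were higher and 54 (2.02%) lower in Ly6High, with median log2 ratios of -0.02 and -0.04. B-cell markers then summed to 0.40 and 1.07 per 10000 in Ly6High and to 1.40 and 1.23 in Ly6CLow, and NK markers to 0.30 and 0.25 and to 0.41 and 1.08. The cells of this comparison are also cells of the comparison before, so its values are given beside those and are no second test of them. Median depths were 11602.5 and 12294 UMIs in Ly6High and 6182 and 7277 in Ly6CLow, and the part of depth was not tested beyond the alternatives given at the end.

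Ly6c2 itself stood at 21.3 and 21.04 per 10000 in Ly6High and at 0.821 and 1.59 in Ly6CLow cells of cluster 3, a log2 ratio of 4.56 (3.81 to 5.77) in Het and 3.68 (3.21 to 4.29) in Hom. Seen cell by cell, Ly6High cells had a median of 8 and 7 Ly6c2 counts with quartiles of 4 and 16 and of 3 and 14. Ly6CLow cells had a median of 0 in both samples and a highest cell of 5 counts in Het and 8 in Hom. Of all pairs made of 1 cell from each gate, a share of 0.938 in Het and 0.926 in Hom had the higher Ly6c2 count in the Ly6High cell, ties counting in part. The distributions overlapped at the low end: 6 of 72 and 4 of 101 Ly6High cells had no Ly6c2 count, and 1 of 25 and 5 of 39 Ly6CLow cells had 3 or more.

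**Figure D3:**
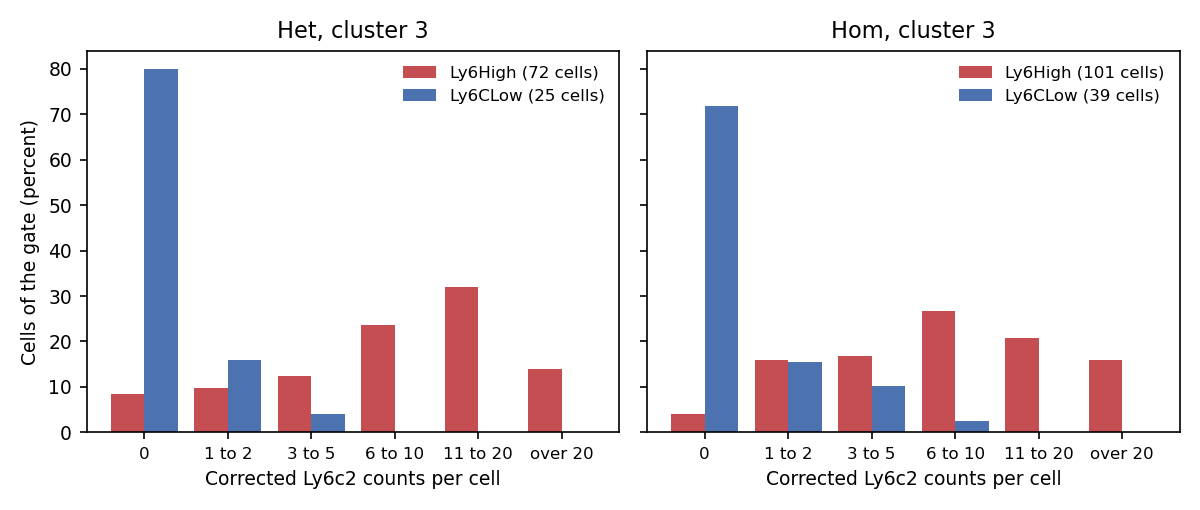
Percent of the cluster 3 cells of each gate by their corrected Ly6c2 counts, for Het and Hom. In Het 80.0% and in Hom 71.8% of Ly6CLow cells have 0 counts, and 0 Ly6CLow cells have more than 10.

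Cells whose RNA and surface gate stood apart were looked at in more detail, with a division at 3 Ly6c2 counts chosen after the values were seen. Among Ly6High cells of cluster 3, the 13 Het and 20 Hom cells with under 3 counts had Ace at 3.20 and 3.58 per 10000, against 0.497 and 0.612 in the cells with 3 or more. Ace, the angiotensin-converting enzyme, is a marker of patrolling monocytes. Their Ccr2 level was 13.1 and 13.3 against 19.8 and 18.4, and Chil3 stood at 22.2 and 3.58 against 27.8 and 57.7. Cd300e had 0 counts in both classes. The cells low in Ly6c2 were also shallower, with medians of 8467 and 10273 UMIs against 12020 and 12406. The 5 Hom Ly6CLow cells with 3 or more Ly6c2 counts had Ccr2 at 16.3 and Cd209a at 14.8 per 10000 and no Ace or Cd300e counts.

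Markers of classical monocytes followed the gate within cluster 3. Of 10 listed, 10 had enough counts and 9 were at least 2-fold higher in both samples, beside 2.54% of all genes tested there, with a list median log2 ratio of 3.30 in Het and 3.1 in Hom. Chil3 stood at 26.8 and 46.7 against 0.657 and 0.719 per 10000. Fn1, fibronectin, stood at 16.6 and 16.4 against 1.07 and 1.64, with log2 ratios of 3.86 (3.18 to 4.88) and 3.28 (2.81 to 3.88). Vcan had 104 and 55 counts in Ly6High and 0 in Ly6CLow, at least 11.4-fold and 6.98-fold higher. Ccr2 differed by less than these, with log2 ratios of 1.78 and 1.70, and 64.0% of Het and 69.2% of Hom Ly6CLow cells of the cluster had a Ccr2 count. The background of that share in B220 positive cells was 4.17% and 3.96%. Ifitm6 was the marker not past 2-fold, at 10.6 and 10.8 against 8.62 and 6.98 per 10000.

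Markers of patrolling monocytes ran the other way. Of 12 listed, 11 had enough counts in both samples and 10 were at least 2-fold lower in Ly6High, beside 2.02% of all genes, with a list median of -2.49 in Het and -1.95 in Hom. Cd300e had 48 and 40 counts in Ly6CLow and 0 in Ly6High, at least 48.7-fold and 35.0-fold apart. Ace stood at 5.67 and 4.98 per 10000 in Ly6CLow against 0.998 and 1.21 in Ly6High. Treml4, a receptor of the TREM family, stood at 3.53 and 3.34 against 0.432 and 0.449. Eno3, an enolase, stood at 4.27 and 3.64 against 0.216 and 0.528. Nr4a1, the nuclear receptor that patrolling monocytes need for their development in mice, stood at 3.61 and 4.57 against 1.51 and 1.17. Spn, which encodes CD43, had log2 ratios of -2.21 and -2.15, and Fcgr4, an activating Fc receptor, had -3.36 and -1.94. Pou2f2, a transcription factor, reached -0.90 in Het and -1.62 in Hom and so passed 2-fold in Hom alone. Outside this list, Cd9 stood at 3.45 and 3.95 per 10000 against 0.135 and 0.0977, Fabp4, a fatty acid binding protein, at 2.46 and 1.33 against 0.162 and 0.0782, and Bcl2a1b, a survival factor, at 1.72 and 2.67 against 0.054 and 0.254, the first of these on 2 counts with a log2 ratio of -4.48 (-8.14 to -2.97).

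**Figure D4:**
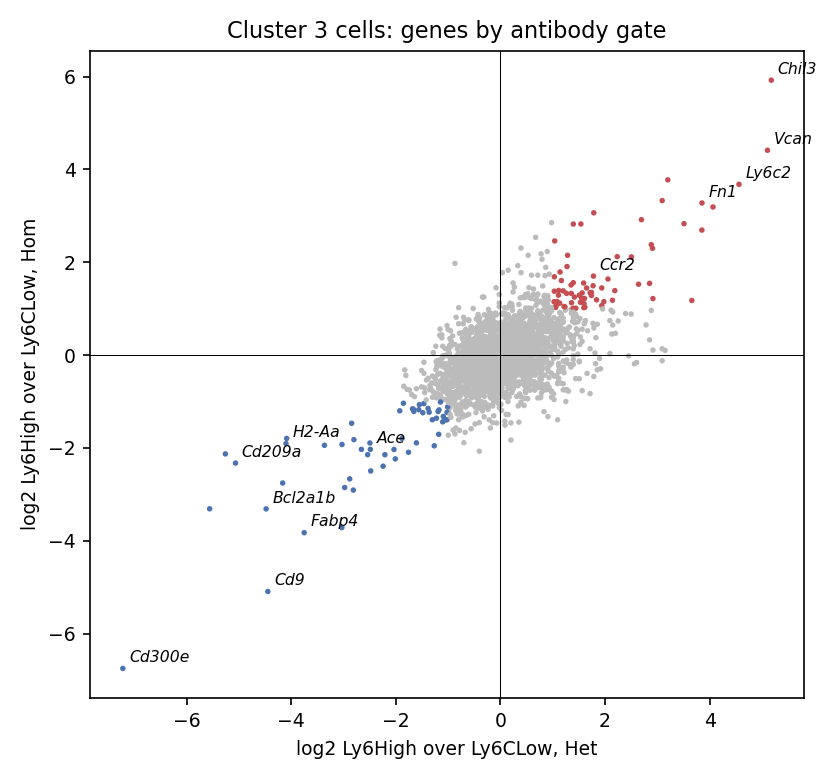
Log2 ratio of Ly6High over Ly6CLow within cluster 3 for 2673 genes, Het on the x axis and Hom on the y axis. Red marks the 68 genes at least 2-fold higher and blue the 54 at least 2-fold lower in both samples. Chil3, Vcan, Ly6c2 and Fn1 lie at the upper right and Cd300e and Cd9 at the lower left.

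The Ly6CLow cells of cluster 3 were not uniform, and they were divided further by a gene chosen after the values were seen. Cd209a, a lectin known from monocyte-derived dendritic cells, was counted in 4 of 25 Het and 13 of 39 Hom cells, against 1.23% and 1.06% of B220 positive cells. These cells had 0 Cd300e counts, Ace at 0.497 and 0.151 per 10000 and H2-Aa, a chain of MHC class II, at 69.1 and 71.3. The 21 and 26 Ly6CLow cells without a Cd209a count had Cd300e at 4.72 and 3.11, Ace at 6.69 and 7.46, Nr4a1 at 4.33 and 6.84 and H2-Aa at 10.6 and 12.3. Ccr2 stood at 12.4 and 11.2 in the cells with Cd209a and at 3.94 and 2.25 in those without. The cells with Cd209a were deeper, at medians of 12205 and 12034 UMIs against 5661 and 6242.5. Ly6High cells of the cluster had a Cd209a count in 2 of 72 Het and 13 of 101 Hom cells.

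MHC class II genes, whose products present antigen to T cells, differed between the gates in both samples but by unlike amounts. Of 10 listed, 6 had enough counts in both samples within cluster 3. Of these, 4 (H2-Aa, H2-Ab1, H2-Eb1 and Cd74) were at least 2-fold lower in Ly6High, beside 2.02% of all genes tested there. The list summed to 13.5 per 10000 in Het Ly6High cells and to 109 in Ly6CLow, and to 51.9 and 184 in Hom. For Cd74, the invariant chain, the levels were 6.50 against 53.2 in Het and 25.03 against 95.1 in Hom. The log2 ratio was -3.03 (-3.25 to -2.82) in Het and -1.93 (-2.03 to -1.82) in Hom. The sums were uneven within the gates. Ly6CLow cells with a Cd209a count, 4 in Het and 13 in Hom, had the list at 347 and 379 per 10000, and those without one at 61.6 and 83.6. Ly6High cells without a Cd209a count had it at 13.4 and 38.3. Each genotype was 1 sample, so whether this gap between Het and Hom goes with genotype was not tested.

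Further lists are given by counts over all gated cells and then within cluster 3. Of 16 interferon-induced genes, 11 had enough counts in both samples, and 5 were at least 2-fold higher in Ly6High and 0 lower, beside 4.23% and 3.78% of all genes, with medians of 0.93 and 1.25. Within cluster 3, where 2.54% of all genes were higher and 2.02% lower, only Ifi27l2a of 10 with enough counts was higher, at 33.7 and 33.9 against 11.3 and 13.3 per 10000. Of 15 granule genes, 5 had enough counts and 4 (Mmp8, Chil3, Lyz2 and Hp) were higher both over all cells and within the cluster. Lyz2, lysozyme, stood at 360 and 408 against 176 and 127 per 10000 within it. Of 8 S100 genes, 8 had enough counts within the cluster, and 2 were higher and 1 lower. S100a4, a calcium-binding protein of motile cells, stood at 33.8 and 34.2 against 14.0 and 13.6 there, and S100a6 at 37.0 and 33.2 against 13.6 and 16.4. S100a9 was lower, at 1.73 and 1.66 against 5.09 and 3.75. Over all gated cells S100a4 was higher and S100a8 and S100a9 were lower, and 1 Het Ly6CLow cell held 88.7% and 84.97% of the counts of the last pair. Of 17 transcription factors of monocytes, 12 had enough counts within the cluster. Cebpa, which drives myeloid differentiation, was higher at 1.21 and 1.86 against 0.329 and 0.873, and Nr4a1 was lower. Of 8 Fc receptor genes, 5 had enough counts within the cluster. Fcgr1 was higher, with log2 ratios of 1.28 and 2.15, and Fcgr4 lower.

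Immediate early genes, which respond to handling of cells, were counted as well. Of 12 listed, 9 had enough counts over all gated cells, with medians of -1.81 and -0.99. Of these, 4 (Jun, Jund, Egr1 and Dusp1) were at least 2-fold lower in Ly6High, beside 3.78% of all genes. Within cluster 3, 8 had enough counts and 0 passed 2-fold in both samples, with medians of -0.28 and -0.69. Of all genes tested there, 2.54% were higher and 2.02% lower. A single cell held 65.6% of the Jun counts of Het Ly6CLow cells. Of 12 adhesion genes, 10 had enough counts within the cluster, and 1 was higher and 2 (Itgal and Spn) were lower, beside the same shares. Of 10 genes of the cell cycle, 2 had enough counts and 0 passed 2-fold in both samples.

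**Figure D5:**
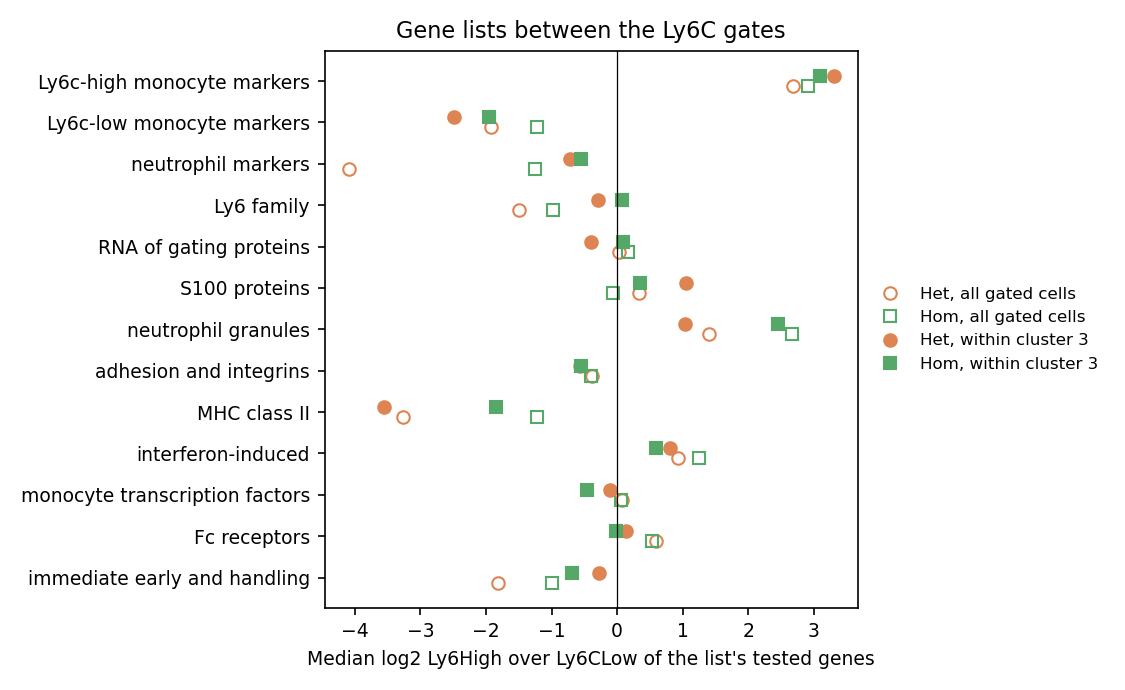
Median log2 ratio of Ly6High over Ly6CLow for each gene list with at least 3 tested genes, with open symbols for all gated cells, filled symbols for cluster 3 alone, circles for Het and squares for Hom. Markers of Ly6c-high monocytes lie at 3.30 and 3.1 and those of Ly6c-low monocytes at -2.49 and -1.95 within cluster 3. Neutrophil markers lie at -4.09 in Het over all gated cells (5 tested) and at -0.72 within cluster 3 (4 tested).

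Cx3cr1, the fractalkine receptor that is rich on patrolling monocytes, stood at unlike levels in the samples. Over all gated cells it stood at 2.09 and 5.43 per 10000 in Het Ly6High and Ly6CLow cells and at 0.455 and 1.61 in Hom, at least 2-fold lower in Ly6High in both. A single cell held 30.7% of the Het and 37.1% of the Hom Ly6CLow counts, and 32.0% of the Hom Ly6High counts. Cluster 3 gave 61 of the 101 Het but only 13 of the 70 Hom Ly6CLow counts. Most Hom Ly6CLow counts of Cx3cr1 therefore came from cells outside the monocyte-like cluster. Within cluster 3 Cx3cr1 stood at 2.21 (1.76 to 2.75) and 5.01 (3.83 to 6.44) in Het. In Hom it stood at 0.332 (0.193 to 0.532) and 0.667 (0.355 to 1.14) on 17 and 13 counts, under the minimum of 20, with intervals that overlap, so no direction is given for Hom there. B220 positive cells showed 0.298 in Het and 0.282 in Hom, so the Hom Ly6High level overlapped that background. Ccr2 did not show such a gap, with 18.6 and 17.4 in Ly6High. The EGFP row of the table had 7 and 8 counts in Het and 34 and 7 in Hom Ly6High and Ly6CLow cells of cluster 3, and 0 in B220 positive cells of both samples.

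The third gate was compared with each of the others. These comparisons share the Ly6CLy6G cells and, with the first, the other gates, so only their own values are given. S100a8 and S100a9 took 23.0% of all corrected counts of Het and 16.6% of Hom Ly6CLy6G cells, against at most 0.856% in the other gates. They moved the median log2 ratio of all tested genes to -0.55 and -0.33 against Ly6CLow and to -0.59 and -0.24 against Ly6High. With both genes left out of the totals, chosen after this share had been seen, these medians were -0.19 and -0.07, and -0.21 and 0.02.

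Of 5313 genes with enough counts, 579 (10.9%) were at least 2-fold higher in Ly6CLy6G than in Ly6CLow in both samples and 1294 (24.4%) lower. Without S100a8 and S100a9 in the totals the numbers were 769 and 979. Against Ly6High, 734 (13.4%) of 5470 genes were higher and 1502 (27.5%) lower, or 985 and 1191 without them. The surplus of lower genes depended on genes with few counts. With a minimum of 50 counts instead of 20, 492 of 3115 genes were higher and 500 lower than in Ly6CLow. Against Ly6High, 594 of 3231 were then higher and 668 lower. Of 12 neutrophil markers, 12 had enough counts and 12 were higher than in Ly6High in both samples, with medians of 6.42 and 7.29.

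S100a8 and S100a9, which together form calprotectin, stood at 986 and 759 and at 1314 and 901 per 10000 in Ly6CLy6G cells. In Ly6High they stood at 1.63 and 1.42 and at 2.68 and 2.71. Their log2 ratios over Ly6High were 9.22 and 9.05 and 8.92 and 8.37. An S100a8 count was found in 742 of 742 Het and 370 of 371 Hom Ly6CLy6G cells, but also in 61.0% and 62.1% of B220 positive cells, where the median cell had 1 count against 434 and 316. Shares of cells with a count carry little for such a gene, and levels are used instead.

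Receptors and granule genes of neutrophils were next. Cxcr2, which draws neutrophils to chemokines, stood at 22.3 and 17.3 per 10000 against 0.153 and 0.0728 in Ly6High and 0.968 and 0.459 in Ly6CLow. Csf3r, the receptor of the growth factor G-CSF, stood at 29.9 and 29.1 against 0.842 and 1.07 in Ly6High. Retnlg, a resistin-like protein, had log2 ratios over Ly6High of 8.06 and 7.98. Mmp9, a gelatinase, had 7.64 (6.37 to 11.27) and 8.0 (6.86 to 10.69) on 2 and 3 counts in Ly6High. Hdc, the enzyme that makes histamine, had 7.54 (6.07 to 13.85) and 8.22 (6.74 to 14.52) on 1 count in each. Wfdc21 had 5333 and 1331 counts against 0 in Ly6High, at least 214-fold and 152-fold higher. Ifitm1 had log2 ratios of 7.85 and 6.87. Against Ly6CLow, Stfa2l1, a stefin-like gene, stood at 10.9 and 9.15 against 0.0538 and 0.023 per 10000, which was 1 count in each, with log2 ratios of 6.66 (5.18 to 12.97) and 7.64 (6.16 to 13.94). Lcn2, a siderophore-binding protein of granules, stood at 24.6 and 10.9 against 0.86 and 0.138. Arg2, a mitochondrial arginase, had 905 and 316 counts against 0, at least 17.3-fold and 28.7-fold higher. Asprv1, a protease, had 875 counts against 0 in Het, at least 16.7-fold higher, and 427 against 1 in Hom, a log2 ratio of 5.87 (4.38 to 12.17). Lrg1, a secreted glycoprotein, had log2 ratios of 4.20 and 4.47.

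Genes lower in Ly6CLy6G than in Ly6High included monocyte genes. Ccr2 stood at 0.212 and 0.150 per 10000 in Ly6CLy6G, and its share of cells with a count, 3.91% and 3.77%, was at the background of B220 positive cells. The log2 ratios of Ccr2 against Ly6High were -6.39 and -6.74, those of F13a1 -7.07 and -6.42, those of S100a4 -6.75 and -5.80 and those of Chil3 -5.60 and -6.34. Ms4a4c and Ms4a6c, membrane proteins of the MS4A family, stood at 0.166 and 0.150 and at 0.222 and 0.394, against 9.26 and 9.43 and 17.9 and 17.6 in Ly6High. Stxbp6 and Dpy19l1 had 1 and 0 and 1 and 1 counts in Ly6CLy6G, against 27 and 51 and 25 and 68. The log2 ratios were -6.86 (-13.16 to -5.21) for Stxbp6 in Het and -6.75 (-13.05 to -5.08) and -6.65 (-12.95 to -5.10) for Dpy19l1, and Stxbp6 was at least 49.5-fold lower in Hom. Against Ly6CLow, Lgals1, the lectin galectin-1, stood at 0.0985 and 0.163 against 3.28 and 8.75 per 10000. Ahnak, a large scaffold protein, had log2 ratios of -5.04 and -4.45, Grk3, a kinase of receptors, -6.01 and -4.90, Cbfa2t3, a corepressor, -5.71 and -4.94, and Ccdc88a, an actin-binding protein, -5.81 and -4.67.

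Of 12 immediate early genes, 11 had enough counts, and 9 were at least 2-fold higher in Ly6CLy6G than in Ly6High in both samples, beside 13.4% of all genes, with medians of 2.61 and 2.80. Against Ly6CLow 6 of 11 were higher and 0 lower, beside 10.9% and 24.4% of all genes, with medians of 1.33 and 1.31. With all deposited cells these medians of the list against Ly6CLow turned to -0.99 and -0.30. Fos, a transcription factor induced within minutes of a stimulus, stood at 15.3 and 19.97 per 10000 against 3.11 and 2.86 in Ly6High and 5.70 and 3.76 in Ly6CLow. Cebpd, a transcription factor of myeloid cells, stood at 10.8 and 10.3 against 2.83 and 1.66 in Ly6High. The part that depth and handling have in these differences was not tested.

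Blood from mice bearing brain metastases of E0771 breast cancer cells was taken about 2 weeks after injection into the carotid artery. Among its clear cells 2312 carried gates of these names, with Ly6CHigh for Ly6High. The gates there were given in another column of the cell descriptions, and whether they were set at the same positions is not known. The samples of metastasis-bearing mice share no cells with naive blood, but their table was normalised apart from it. Of the 122 genes higher in naive Ly6High cells, 92 had enough counts there and 73 (79.3%) were at least 2-fold higher in both samples, which is 25.8% of the 283 genes (13.3% of 2130) that were so. Of the 109 lower genes 67 had enough counts and 48 (71.6%) were lower, 30.6% of 157 (7.37%). Ly6c2 had log2 ratios of 4.31 in Het and 3.13 in Hom, Ccr2 of 2.25 and 2.23, Chil3 of 5.96 and 5.0 and H2-Aa of -4.04 and -4.57. Ace, at 0.181 against 0.504 per 10000 in Het and 1.23 against 1.02 in Hom, did not pass 2-fold in both samples. The Ly6CLow gate there held 49 Het cells with a median of 1680 UMIs and 197 Hom cells with a median of 6607.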

How the data were processed

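RNA, antibody-tag and hashtag libraries of 1 pool were made with a 10x 3′ v3 kit, per the labels' protocols. Per the submitters' processing notes, the tool was Cell Ranger 3.1 and the build mm10. The authors deposited natural log values of 1 plus SCTransform-corrected counts, per the values: back-transformed they were whole to within 1.18e-11, and their sums per cell equalled the deposited score column of corrected totals in 5363 of 5363 cells. Deposited cell descriptions give raw RNA, antibody and hashtag counts per cell, gates and clusters. Only hashtag singlets were deposited, no doublet caller was run here, and raw counts per gene were not used.

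Corrected counts were summed per gate and sample and scaled to 10000. Log2 ratios had a pseudocount of 1, with exact Clopper-Pearson intervals of the count ratio, and levels had exact Poisson intervals. Both treat corrected counts as if they were counted molecules. Genes named are the 8 higher and 8 lower (4 and 4 within cluster 3) whose nearer 95% bound, the smaller of Het and Hom, lay farthest from 1. Added to them were Ly6c2, Ly6c1, Ly6g, Ly6a, Ccr2, Cx3cr1 and members of the lists. The ranking skipped genes of haemoglobins, ribosomes, mitochondria, antigen receptors and the Gm and Rik series. Members and lists were chosen with earlier results of these data known. One gene of the lists is not reported here. Igha and EGFP were chosen after their values were seen. Python 3.11.15, numpy 2.4.6, scipy 1.17.1 and pandas 2.3.3 were used, and the calculation was tested on simulated counts.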

Additional observations from a re-analysis of the deposited data

Results flagged for a closer look

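One gene list ran in opposite directions in the 2 samples, and the difference was not tested. The median log2 ratio of the erythroid markers in Ly6CLy6G over Ly6High was 5.13 in Het and -1.39 in Hom. The 4 haemoglobin genes made up the tested members. In Hom Ly6High cells Hbb-bs had 1526 counts, and a single cell held 99.1% of them, while Het Ly6High cells had 13 counts. In Ly6CLy6G cells Hbb-bs stood at 12.8 per 10000 in Het and 9.37 in Hom, and a single cell held 48.7% and 92.3% of its counts.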

How the results depend on the processing

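The counts of genes depend on the settings, given here as higher and lower genes. For Ly6High over Ly6CLow (122 and 109), they were 299 and 542 with all deposited cells, 43 and 13 with cells thinned to 1000 corrected counts, 73 and 39 with a minimum of 50 counts, 217 and 508 with 3, 337 and 216 at 1.5-fold, 36 and 48 at 3-fold and 36 and 52 where the interval bound had to pass 2-fold. Leaving out the top cell of the higher gate left 52 lower, and of both gates 64. Within cluster 3 (68 and 54), they were 34 and 7 thinned, 45 and 19 with 50 counts, 125 and 377 with 3, 206 and 211 at 1.5-fold, 17 and 29 at 3-fold and 17 and 28 by the bound, with 32 lower without the top cell of the higher gate and 119 higher without that of both gates. For Ly6CLy6G over Ly6CLow (579 and 1294), they were 315 and 278 thinned, 317 and 719 at 3-fold and 235 and 615 by the bound, with 2199 lower in all deposited cells, 500 with 50 counts and 3944 with 3. For Ly6CLy6G over Ly6High (734 and 1502), they were 428 and 359 thinned, 465 and 933 at 3-fold and 383 and 913 by the bound, with 668 lower with 50 counts and 3774 with 3. Thinning lowers the number of genes with enough counts. It gave a Ly6c2 log2 ratio of 3.61 in Hom for Ly6High over Ly6CLow, and Ly6g ratios of 3.24 and 3.00 for Ly6CLy6G over Ly6High. With all deposited cells, which include barcodes shared between tables, Ly6CLow cells lay in cluster 3 in 32.1% (Het) and 28.2% (Hom), and Ly6CLy6G cells in cluster 0 in 92.7% and 89.1%. Among cells with at least 2000 UMIs, chosen after the low-RNA cluster had been seen, Ly6High cells lay in cluster 3 in 100% (72 of 72) and 97.1%. Signs turned with all deposited cells for Ly6a and for the Ly6 family median in Ly6High over Ly6CLow (both 0.44, Het), and for the immediate early median in Ly6CLy6G over Ly6CLow (-0.99 and -0.30). Without the top cell of the higher gate they turned for Retnla in Hom (0.080 for Ly6High over Ly6CLow, 0.35 for Ly6CLy6G over Ly6CLow) and for the erythroid median in Ly6CLy6G over Ly6High (5.18, Hom; 1.03 without that of both gates). The cause of these shifts was not tested where 1 cell or the choice of cells does not show it. Of list medians, 1187 of the values under alternatives kept within their limits and 122 moved. Only cluster 3 held at least 20 cells of both Ly6C gates, so the alternative limited to such clusters equals the values within cluster 3 and gives none for Ly6CLy6G. No paired analysis was possible because the labels carry no replicate numbers and each genotype is 1 sample.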
